A study of Mus musculus with 12 samples.

Results

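The subject is the mouse Gata3 locus: every DNase I hypersensitive site (DHS) on chromosome 2 from 50 kb upstream of the Gata3 start to 400 kb beyond the end of the gene. The members were found by position alone. Peaks of all libraries were merged into consensus DHSs wherever they overlapped by at least 1 bp, and those that touch the window were kept, which gave 61 consensus DHSs of 170207 on the autosomes and chromosome X. In mm10, Gata3 (ENSMUSG00000015619.10) lies on the minus strand at chr2:9857078-9890034, and the window is chr2:9457078-9940034, or 483.0 kb. GENCODE release M21 lists 6 distinct transcript starts for the gene. The principal coding transcript starts at position 9878600, which is also the RefSeq start, and distances below are kilobases downstream (+) or upstream (-) of that base to the midpoint of a site. Most of the window is gene-poor. Of the 61 sites, 44 lay between annotated genes, and the rest lay in Gata3, in introns of Taf3 upstream, or in an intron of Gm13218, a long non-coding RNA gene downstream.

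The data are 12 DNase-seq libraries from C57BL/6J mouse haematopoietic cells, in which DNase I cuts accessible chromatin and clusters of cuts are called as peaks. There were 3 libraries of LSK cells, the lineage-negative SCA1+ KIT+ stem and progenitor fraction sorted fresh from bone marrow. There were 2 libraries each of DN1 (KIT++ CD44+ CD25-), DN2a (KIT++ CD44+ CD25+) and DN2b (KIT+ CD44lo CD25+) cells, the successive early T cell precursor stages, sorted from LSK cells cultured on the immobilized Notch ligand Delta1ext-IgG, and 3 libraries labelled IgG from LSK cells cultured on human IgG1 without ligand. The paper describes the ligand of the DN cultures as high density, and the labels give no dose. No sort is described for the IgG cultures, and LSK cells were not cultured. Ligand therefore cannot be told apart from sorting against IgG, or from culture against LSK. All cultures held SCF, FLT3 ligand, IL-6 and IL-11, and IL-7 was added at day 14 to the cultures that gave both DN2 populations but not to those that gave DN1, so stage and IL-7 cannot be told apart between DN1 and DN2. The methods describe DN1 and DN2 cells as taken from each LSK isolate, the labels do not say which libraries share one, and each test treats libraries as independent.

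GATA3 is a zinc finger transcription factor that early T cell precursors need to survive and to enter the T lineage, and it acts again in CD4 T helper 2 cells, natural killer cells and innate lymphoid cells. Its gene is switched on early after Notch signaling begins. Regulatory elements for different tissues are spread over a long stretch on the 3' side of the gene, including a distal enhancer known for its activity in T and NK cells. A DHS marks DNA from which nucleosomes are locally displaced, as at active promoters and enhancers, but does not by itself show which gene an element serves or whether the gene is transcribed.

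Each site is described by 2 measures, whether a library has a peak there and the within-library percentile of that peak's deposited score (100 is the highest score of the library, and a library with no peak is set to 0). Lists held 53869 to 62377 peaks in LSK, 69391 and 96436 in DN1, 57729 and 68478 in DN2a, 61484 and 111582 in DN2b and 32952 to 37511 in IgG. Read depth is unknown, a longer list places the same peak at a higher percentile, and a site missing from a short list may have fallen below the caller's limit. Equal list lengths, where given, are the 32952 highest-scoring peaks of every library. DN2b replicate 2, the longest list, stands apart in the window, with 19 of the 30 sites found in 1 library. Of the DN2 markers Il2ra, Cd3e, Bcl11b and Thy1, all 4 had a promoter peak in both DN2b libraries, 3 in both DN2a libraries, 1 in the LSK and DN1 libraries and 0 in IgG. CD25, the product of Il2ra, was used in the sort. Of the LSK markers Kit, Flt3, Cd34 and Ly6a, the first 3 had a promoter peak in every LSK and DN1 library, 2 or 3 of the 4 had one in the DN2 libraries and 1 or 2 in IgG, and Ly6a, which encodes the SCA1 used to sort LSK cells, had no peak at its annotated start in any library.

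The sequences at the sites on which the results turn are shown on the plus strand of GRCm38, the assembly behind mm10, with motif letters in capitals. They are the accessible sequence just upstream of the principal start, both sites of the distal enhancer interval that were found in at least 4 libraries, and the 3 other sites with a Delta1 difference above 60 percentile points. Because Gata3 is on the minus strand, transcription from the principal start runs leftwards from the base just before the start-site line.
Start site, chr2:9878601-9878726: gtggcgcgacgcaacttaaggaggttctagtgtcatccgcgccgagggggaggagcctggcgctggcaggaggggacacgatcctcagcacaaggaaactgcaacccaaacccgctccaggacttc
Site at +75.9 kb, chr2:9802617-9802826: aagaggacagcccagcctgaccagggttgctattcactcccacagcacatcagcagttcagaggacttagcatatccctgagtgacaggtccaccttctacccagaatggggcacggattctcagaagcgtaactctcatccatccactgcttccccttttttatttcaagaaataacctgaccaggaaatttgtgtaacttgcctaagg
Site at +270.7 kb, chr2:9607757-9607966: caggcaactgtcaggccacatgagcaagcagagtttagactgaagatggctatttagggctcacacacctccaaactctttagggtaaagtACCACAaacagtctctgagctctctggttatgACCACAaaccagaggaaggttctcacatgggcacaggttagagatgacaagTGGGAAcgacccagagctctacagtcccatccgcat
Site at +283.1 kb, chr2:9595417-9595586: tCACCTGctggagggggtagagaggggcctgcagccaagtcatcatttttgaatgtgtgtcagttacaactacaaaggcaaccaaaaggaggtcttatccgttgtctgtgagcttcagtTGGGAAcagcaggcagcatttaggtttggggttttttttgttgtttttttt
Site at +284.5 kb, chr2:9593997-9594206: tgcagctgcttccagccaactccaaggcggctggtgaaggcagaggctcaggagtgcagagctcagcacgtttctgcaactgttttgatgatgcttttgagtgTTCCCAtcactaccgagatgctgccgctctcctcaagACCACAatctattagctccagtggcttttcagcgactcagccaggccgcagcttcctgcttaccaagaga
Site at +358.3 kb, chr2:9520177-9520386: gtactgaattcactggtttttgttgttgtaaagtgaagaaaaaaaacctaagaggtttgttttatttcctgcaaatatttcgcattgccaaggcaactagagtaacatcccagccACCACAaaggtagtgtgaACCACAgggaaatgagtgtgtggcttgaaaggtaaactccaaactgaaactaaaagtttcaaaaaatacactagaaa
Capitals mark matches to 6 motifs searched on both strands: AGATAA for GATA factors, CTTTGA for TCF1, TGTGGT for RUNX, GGAAGT for ETS, TGGGAA for RBPJ (the DNA-binding partner of Notch) and CAGGTG for E proteins. The start-site stretch and the +75.9-kb site held none of them. ACCACA, the reverse complement of the RUNX letters, occurred 2 times at +270.7 kb, 2 times at +358.3 kb and 1 time at +284.5 kb. RBPJ letters occurred 1 time each at +270.7, +283.1 and +284.5 kb, and E-box letters 1 time at +283.1 kb. Among all consensus DHSs of 210 bp, 28.9% held the RUNX letters and 17.4% the RBPJ letters, and among those of 170 bp, 14.8% held the RBPJ letters and 14% the E-box letters. None of the matches overlapped another. A match is a description of the sequence, not evidence that a factor binds.

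Chromatin of the Gata3 window was more widely accessible after culture on Delta1 than in LSK cells or in culture on IgG. The number of window peaks was 12, 7 and 12 in the LSK libraries, 27 and 17 in DN1, 21 and 13 in DN2a, 21 and 46 in DN2b, and 3, 1 and 3 in IgG. Every Delta1 library had more window peaks than every LSK and IgG library. The mean was 24.2 ± 11.7 (SD, n = 6) with Delta1 and 6.33 ± 4.80 (SD, n = 6) without, a difference of 17.8 peaks (exact two-sided permutation test, adjusted p = 0.002886, Benjamini-Hochberg over 4 tests of the window).

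Scaled to list length, the IgG libraries had 0.634 ± 0.287 (SD, n = 3) window peaks per 10000 and the LSK libraries 1.81 ± 0.48 (SD, n = 3). The share was 2.62 ± 0.25 (SD, n = 2) at the DN1 stage and 2.66 ± 0.58 (SD, n = 2) at DN2a, and it was highest at DN2b, with 3.77 ± 0.50 (SD, n = 2). The lowest Delta1 library, DN2a replicate 2 at 2.25, lay just above the highest library without Delta1, LSK replicate 1 at 2.23. The 95% Wilson intervals of these shares, which cover counting error only, were 1.32 to 3.85 and 1.27 to 3.89. Delta1 libraries exceeded the others by 1.79 per 10000 (exact permutation adjusted p = 0.002886). The 4 DN2 libraries exceeded the other 8 by 1.64 per 10000 (exact permutation adjusted p = 0.0101), and exceeded LSK and DN1 alone by 1.077 (exact permutation adjusted p = 0.04762). Differences between the 5 groups took up 0.914 of the variance of this share (eta squared, exact permutation adjusted p = 0.001962).

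At equal list lengths the same order was sharper. The highest-scoring peaks held 6, 4 and 4 window peaks in LSK, 9 and 9 in DN1, 13 and 10 in DN2a, 15 and 14 in DN2b, and 1, 1 and 3 in IgG. No pair of these groups overlapped, with IgG lowest and LSK, DN1, DN2a and DN2b above it in that order. The difference between Delta1 and no Delta1 was 8.5 peaks (exact permutation adjusted p = 0.002165), and that between DN2 and the other groups was 2.54 per 10000 (exact permutation adjusted p = 0.002165). Neighbouring stages were not tested, because 2 libraries against 2 cannot give a two-sided p below 0.333 and 3 against 2 cannot go below 0.1.

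**Figure D1:**
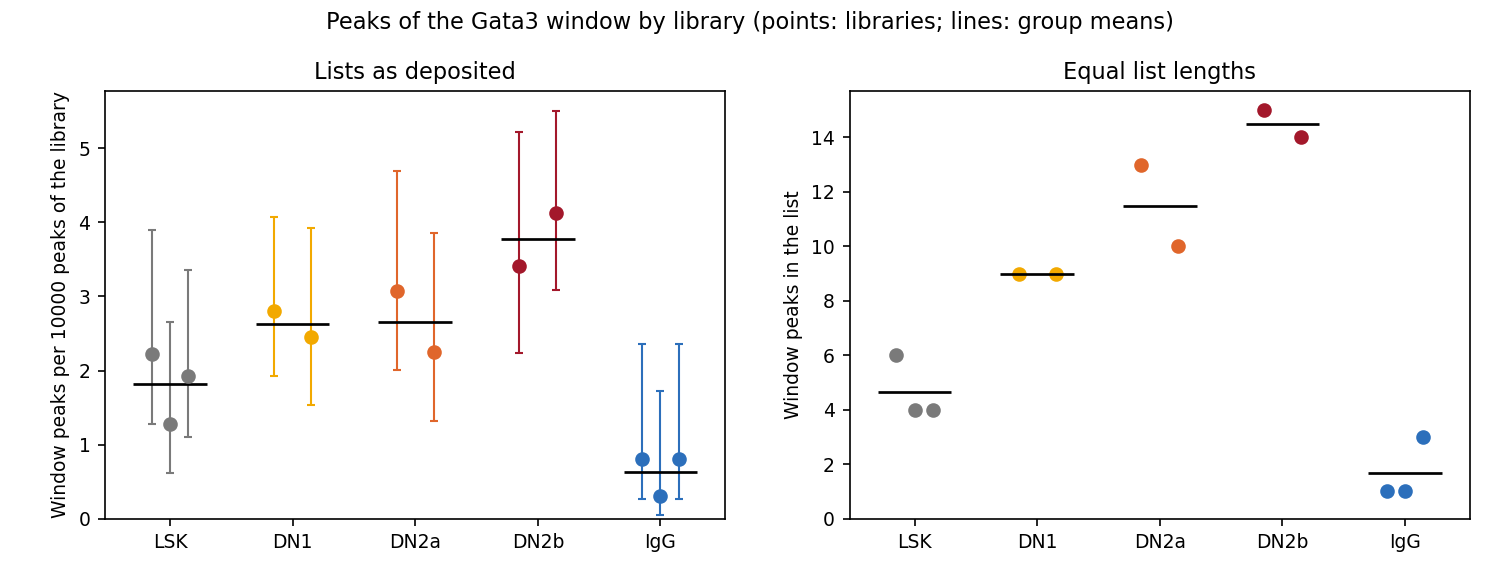
Peaks of the Gata3 window in each library, as peaks per 10000 peaks of the library with 95% Wilson intervals (left) and as the number of window peaks among the 32952 highest-scoring peaks (right). Points are libraries and black lines are group means. On the right, IgG libraries hold 1 to 3 window peaks and DN2b libraries 14 and 15.

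The sites were unevenly spread along the window. The upstream 50 kb held 4 sites, the gene body and its starts 11, and the remaining sites lay downstream of the gene. Sites recurred in clusters at the start, near +75 kb, near +190 kb and near +284 kb, as the map of sites by library shows. The gene-desert stretch nearest the gene end, 0 to 50 kb beyond it, held 7 sites, of which 6 were found in 1 library. By contrast, 3 of the 5 sites 50 to 100 kb beyond the gene end were found in at least 6 libraries.

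**Figure D2:**
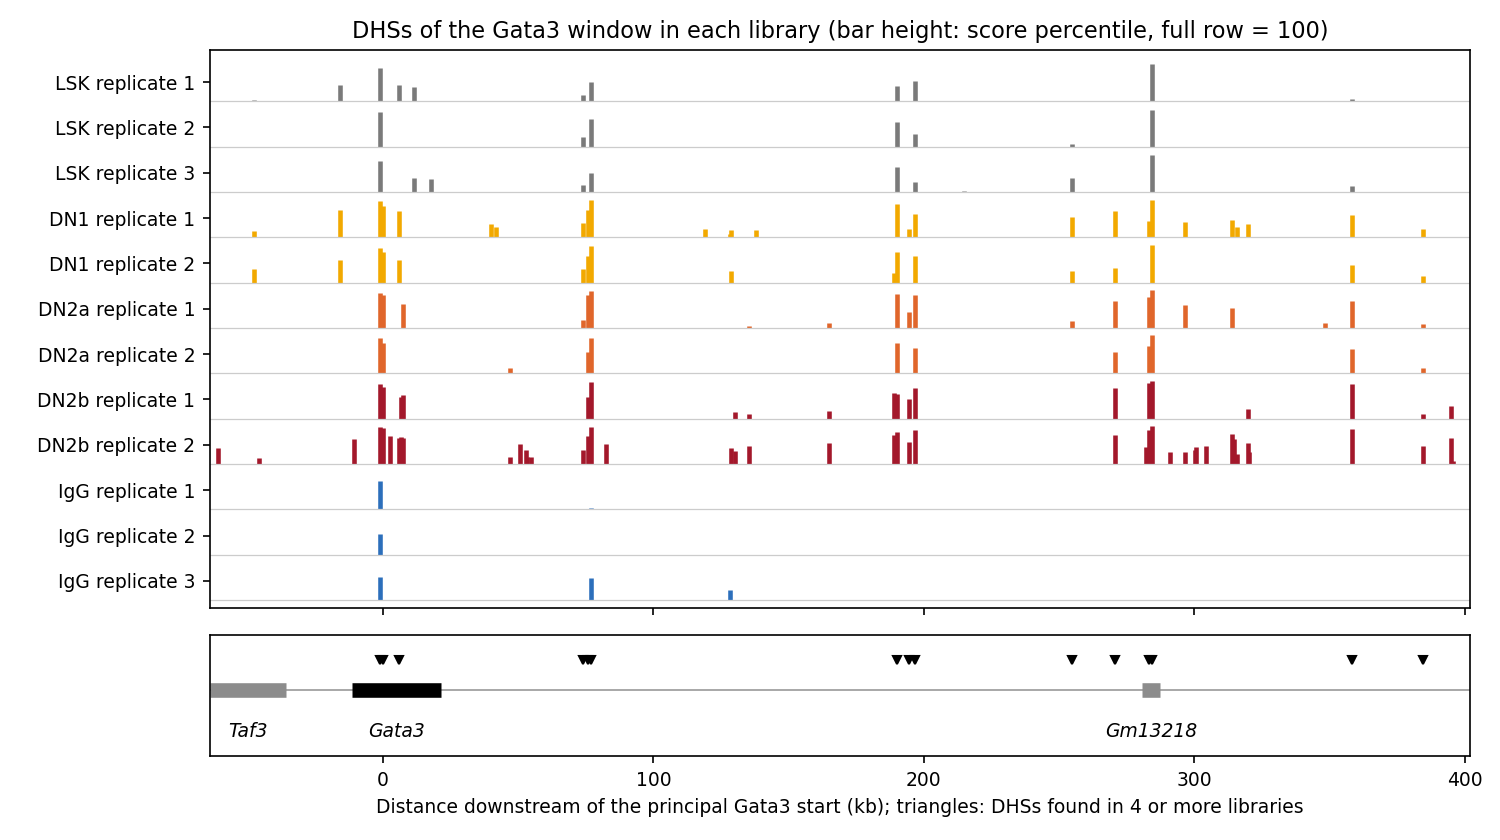
Consensus DHSs of the Gata3 window by library. The horizontal axis is the distance downstream of the principal start in kilobases, each bar is a site with a peak in that library, and its height is the score percentile (a full row is 100). Grey and black blocks are gene records, and triangles mark the 15 sites found in at least 4 libraries. IgG rows hold 1 to 3 sites and the DN2b replicate 2 row holds 45.

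Of the 61 sites, 30 were found in 1 library, 16 in 2 or 3 libraries and 15 in at least 4. The share of single-library sites among all consensus DHSs was 32.7%. IgG libraries had a peak at 4 sites and LSK libraries at 15. For the Delta1 stages the numbers were 28 (DN1), 21 (DN2a) and 46 (DN2b). At 44 sites the peaks came from Delta1 libraries alone, and 5 sites had no Delta1 peak. The shares of all consensus DHSs with a peak in each group, or in Delta1 libraries alone, are not given here. Delta1 lists were also longer, with a mean of 77517 peaks against 46461 without Delta1. These counts are therefore not a result about the window. Without DN2b replicate 2 there were 42 sites, of which 25 had peaks from Delta1 libraries alone and 21 had a DN2b peak.

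The 15 recurrent sites were tested within a fit over all 72177 consensus DHSs found in at least 4 libraries. Of these 15, 10 had a higher percentile with Delta1 (adjusted p at most 0.05, exact permutation test, 6 libraries against 6) and 0 a lower one. Over all tested DHSs, 17.2% were called higher and 1.04% lower. The unadjusted p was at or below 0.05 at 11 of the 15 sites, all in the higher direction, against 35.6% of all tested DHSs in either direction, and the mean was higher with Delta1 at all 15. The median difference was 52.1 percentile points over the 15 sites and 16.1 over all tested DHSs. At equal list lengths 10 sites remained to be tested and 4 were called higher, against 10.8% of all tested DHSs, with medians of 42.8 and 2.09 points. Calls over all DHSs split into 12433 higher and 753 lower as deposited, and 4077 higher and 1947 lower at equal lengths. These 10 sites share their libraries and a locus, so they are not 10 independent observations. The start site and the sites at +75.9, +270.7 and +384.6 kb had peaks in the 6 Delta1 libraries alone, so they passed the filter only through the group in which they were high. The sites at +190.2, +196.9 and +284.5 kb had 3 LSK peaks each, that at +358.3 kb had 2, and none had an IgG peak. They too passed the filter of 4 libraries only with the Delta1 libraries. Of the 10 called sites, those at -1.10 and +76.9 kb alone had peaks in at least 4 libraries without Delta1.

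**Figure D3:**
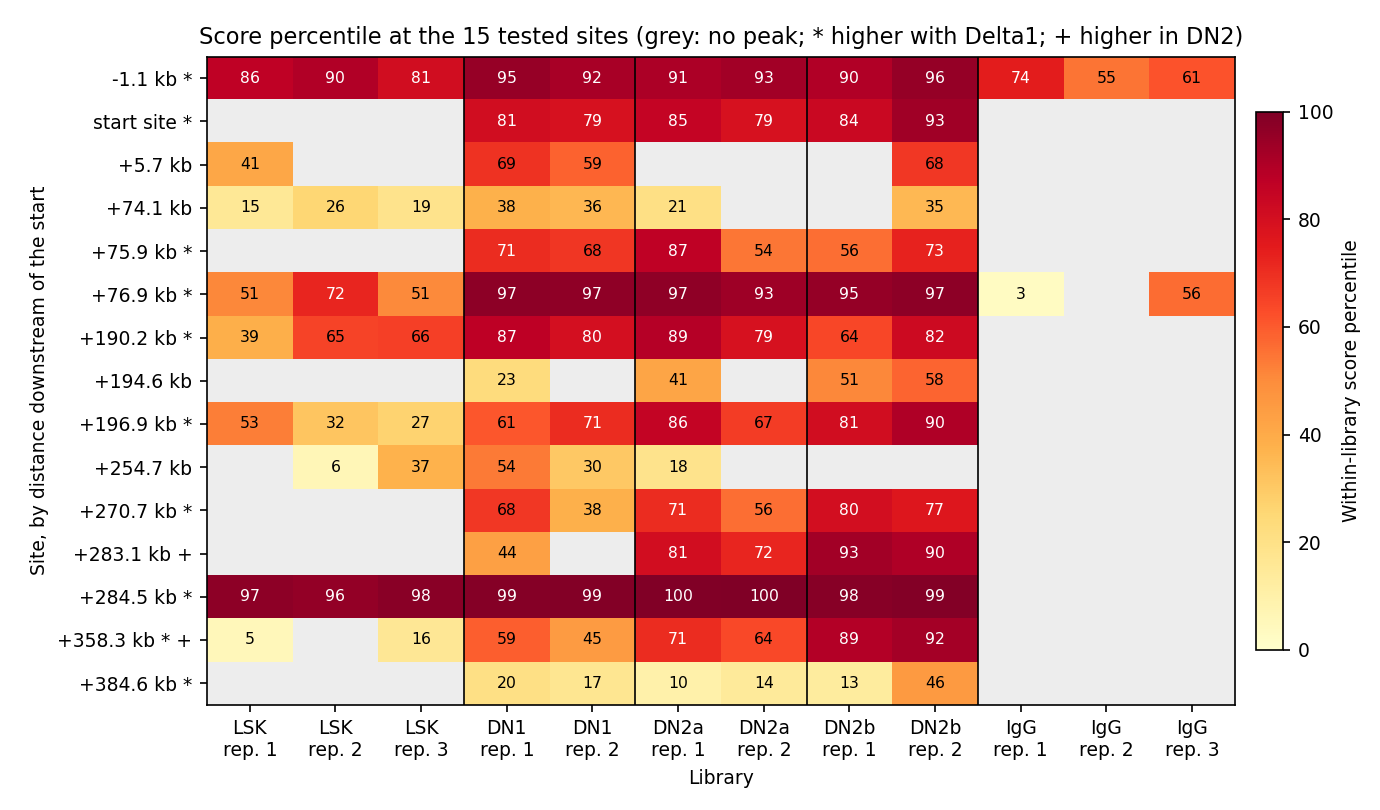
Within-library score percentile at the 15 sites of the Gata3 window found in at least 4 libraries. Rows are sites in order along the locus, columns are libraries, grey cells have no peak, an asterisk marks a site called higher with Delta1 and a plus sign a site called higher in DN2. At 8 of the 10 sites with an asterisk the IgG columns are empty.

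In the lists as deposited, the largest Delta1 difference of the 15 tested sites was at the principal promoter. The start-site DHS, chr2:9878517-9878726, has its midpoint 0.022 kb upstream of the principal start and covers the beginning of the first exon and an exon of the antisense RNA gene Gm13256. Its percentile was 80.9 and 79.3 in DN1, 85.0 and 79.2 in DN2a and 83.5 and 93.4 in DN2b, and no LSK or IgG library had a peak there. The site was thus present in 6 of 6 Delta1 libraries and 0 of 6 others, from DN1 onwards. The mean with Delta1 was 83.6 ± 5.3 (SD, n = 6), and the difference of 83.6 was called (exact permutation adjusted p = 0.01669). DN1, DN2a and DN2b means were 80.1, 82.1 and 88.5, and the range of DN2a overlapped both of the others. At equal list lengths the percentiles were 44.2 and 56.4 in DN1, 68.8 and 63.6 in DN2a and 69.3 and 77.5 in DN2b, still with 0 peaks elsewhere (exact permutation adjusted p = 0.01803). The difference at equal lengths was 63.31 here and larger, at 69.65, at the +76.9-kb site.

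A second site lies 1.10 kb upstream of the principal start, at chr2:9879597-9879806, in an intron of the longer Gata3 transcripts. It was the only site of the window with a peak in all 12 libraries, a pattern shared by 7.68% of all consensus DHSs. Its percentile was 86.4, 89.8 and 80.9 in LSK, 95.1 and 91.5 in DN1, 90.8 and 92.7 in DN2a, 89.8 and 95.5 in DN2b, and 74.3, 54.9 and 61.4 in IgG. IgG was lowest and did not overlap LSK, while DN2b replicate 1 and LSK replicate 2 were equal at this precision. The difference of 18.0 points with Delta1 was called (exact permutation adjusted p = 0.01669), but at equal list lengths it was 15.9 and missed the threshold (exact permutation adjusted p = 0.05065). The call was also lost when any 1 of the 6 Delta1 libraries was left out (exact permutation adjusted p of at most 0.0629). Over 1 kb at the promoter, then, one site was present in every library and its neighbour only where Delta1 had been.

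Other sites at annotated starts of Gata3 were patchy. The site at +5.72 kb, near the start of a non-coding transcript in the gene, had percentiles of 41.2 in LSK replicate 1, 68.8 and 58.6 in DN1 and 67.7 in DN2b replicate 2, and no peak in the other 8 libraries. It was not called (exact permutation adjusted p = 0.28). Single-library sites within 1 kb of a start were at +2.49 kb (72.3), -0.332 kb (67.7) and -10.8 kb (65.9) in DN2b replicate 2, and at -0.732 kb (52.6) in DN2b replicate 1. Because the gene record begins with the longer transcripts, the site at -10.8 kb is the one near the 5' end of the record. A promoter test centred on that end therefore saw a peak in 1 library, too few to be tested. With all transcript starts the promoter difference was 76.7 points (exact permutation adjusted p = 0.02278), and with RefSeq starts, an alternative added after the data were seen, 83.6 (exact permutation adjusted p = 0.02316). At the RefSeq start, as at the start-site DHS, the 6 Delta1 libraries alone had a peak. That promoter therefore passed the filter only through the group in which it was high, and its test restates the presence at the start-site DHS.

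Within the introns of Gata3, small sets of sites differed by stage. The site at +6.58 kb, chr2:9871917-9872126, was present only in the DN2b libraries, at 57.5 and 70.8. Its neighbour at +7.23 kb had percentiles of 62.3 in DN2a replicate 1 and 61.8 and 67.7 in DN2b. The reverse was seen at +11.3 kb, with 36.0 and 37.2 in LSK replicates 1 and 3 and no peak after culture. None of these was found in 4 libraries, so none was tested. Upstream of the gene, the site at -16.0 kb had peaks in LSK replicate 1 (41.2) and in both DN1 libraries (71.6 and 58.6), and in no DN2 or IgG library.

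The first downstream cluster has 3 sites within 3 kb. At +75.9 kb only Delta1 libraries had a peak, at 70.7 and 68.4 in DN1, 86.5 and 54.4 in DN2a and 55.9 and 73.0 in DN2b. The stage groups overlapped, and the difference of 68.2 points was called (exact permutation adjusted p = 0.01669). At equal lengths the 6 values ran from 8.5 in DN2b replicate 2 to 72.0 in DN2a replicate 1, the difference fell to 27.67 points, and the call held (exact permutation adjusted p = 0.01803).

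About 1 kb further, the +76.9-kb site, chr2:9801477-9801826, was present already in LSK. Its percentiles were 50.8, 72.2 and 50.8 in LSK, 97.2 and 96.6 in DN1, 96.8 and 93.5 in DN2a, 95.4 and 97.2 in DN2b, and 3.03, 0 and 56.4 in IgG. All 6 Delta1 values lay above 93, in a narrow band clear of LSK and IgG. The difference was 57.2 points (exact permutation adjusted p = 0.01669), and 69.7 at equal lengths (exact permutation adjusted p = 0.01803). The third site, at +74.1 kb, had lower percentiles of 15.3, 25.6 and 18.6 in LSK and 37.8 and 35.7 in DN1, then 20.7 and 0 in DN2a and 0 and 35.3 in DN2b, and 0 in IgG. It was not called (exact permutation adjusted p = 0.327). These neighbouring sites thus gave different profiles over the same libraries.

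Near +190 kb, a pair of sites was present in every LSK, DN1, DN2a and DN2b library and in no IgG library. The +190.2-kb site had percentiles of 38.6, 65.0 and 65.6 in LSK, 86.7 and 80.0 in DN1, 89.0 and 79.2 in DN2a, and 64.4 and 82.4 in DN2b. DN1 and DN2a lay above LSK, while DN2b overlapped it. The +196.9-kb site had 52.9, 31.6 and 26.9 in LSK, 60.7 and 70.6 in DN1, 85.5 and 66.5 in DN2a, and 81.0 and 90.0 in DN2b. Every Delta1 value there exceeded every LSK value. Differences with Delta1 were 52.1 and 57.2 points (exact permutation adjusted p = 0.03798 and 0.01669), and neither was called at equal lengths, where the differences were 42.79 and 42.82 points (exact permutation adjusted p = 0.06036 and 0.06403). The call at +190.2 kb was also lost without DN1 replicate 1 or 2, DN2a replicate 1 or 2, or DN2b replicate 2 (exact permutation adjusted p of at most 0.0629). Between them, the +194.6-kb site was present in DN1 replicate 1 (22.7), DN2a replicate 1 (41.4) and both DN2b libraries (50.8 and 58.1) and was not called (exact permutation adjusted p = 0.1307). The +188.9-kb site was present in DN1 replicate 2 (25.0) and both DN2b libraries (66.8 and 76.8).

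The distal interval, 260 to 300 kb beyond the gene end, is where the known T and NK enhancer is placed. The placement rests on general knowledge, and its exact borders are not given in the sources used here. The interval held 14 sites, with 1 in each LSK library, 6 and 1 in DN1, 4 and 2 in DN2a, 3 and 13 in DN2b, and 0 in IgG. Without DN2b replicate 2 it held 6 sites.

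Its main site, at +284.5 kb (chr2:9593997-9594206, in an intron of Gm13218), was the highest of the whole window in LSK, DN1, DN2a and DN2b. The percentile was 97.0, 95.7 and 97.7 in LSK, 98.7 and 98.8 in DN1, 99.5 and 99.8 in DN2a, and 98.3 and 99.0 in DN2b. No IgG library had a peak there. In 9 of 9 libraries from fresh progenitors or Delta1 culture the site was thus within the top 5% of peaks, and in culture without ligand no peak was called. It was called higher with Delta1 (difference 50.6, exact permutation adjusted p = 0.01669), with a mean of 99.0 against 96.8 in LSK and 0 in IgG. The call was lost without any 1 of the Delta1 libraries (exact permutation adjusted p of at most 0.1674). At equal lengths LSK was at 92.9 to 95.6, the Delta1 libraries at 96.3 to 99.7 and IgG at 0 (exact permutation adjusted p = 0.01803).

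A second site 1.4 kb away, at +283.1 kb (chr2:9595417-9595586), had a different course. It had no peak in LSK or IgG, 43.6 in DN1 replicate 1 and 0 in DN1 replicate 2, 80.7 and 72.1 in DN2a, and 92.7 and 90.0 in DN2b. DN2b values lay above DN2a values, and those above DN1. The site was called higher in DN2, by 78.4 points (exact permutation adjusted p = 0.03324, 4 libraries against 8), and it was not called higher with Delta1 (exact permutation adjusted p = 0.05686). As deposited it had peaks in the 4 DN2 libraries and DN1 replicate 1, and at equal lengths in the 4 DN2 libraries alone. In both settings it passed the filter of 4 libraries only through the group in which it was high.

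Further sites of the interval were seen in 3 libraries each. The +296.6-kb site had 39.8 in DN1 replicate 1, 59.5 in DN2a replicate 1 and 32.2 in DN2b replicate 2. The +313.9-kb site had 45.5, 53.1 and 78.0 in the same libraries. The +319.9-kb site had 35.7 in DN1 replicate 1 and 25.6 and 54.7 in DN2b. The first 2 of these sites were found in the longest list of each Delta1 stage, and the part of list length in them was not tested.

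**Figure D4:**
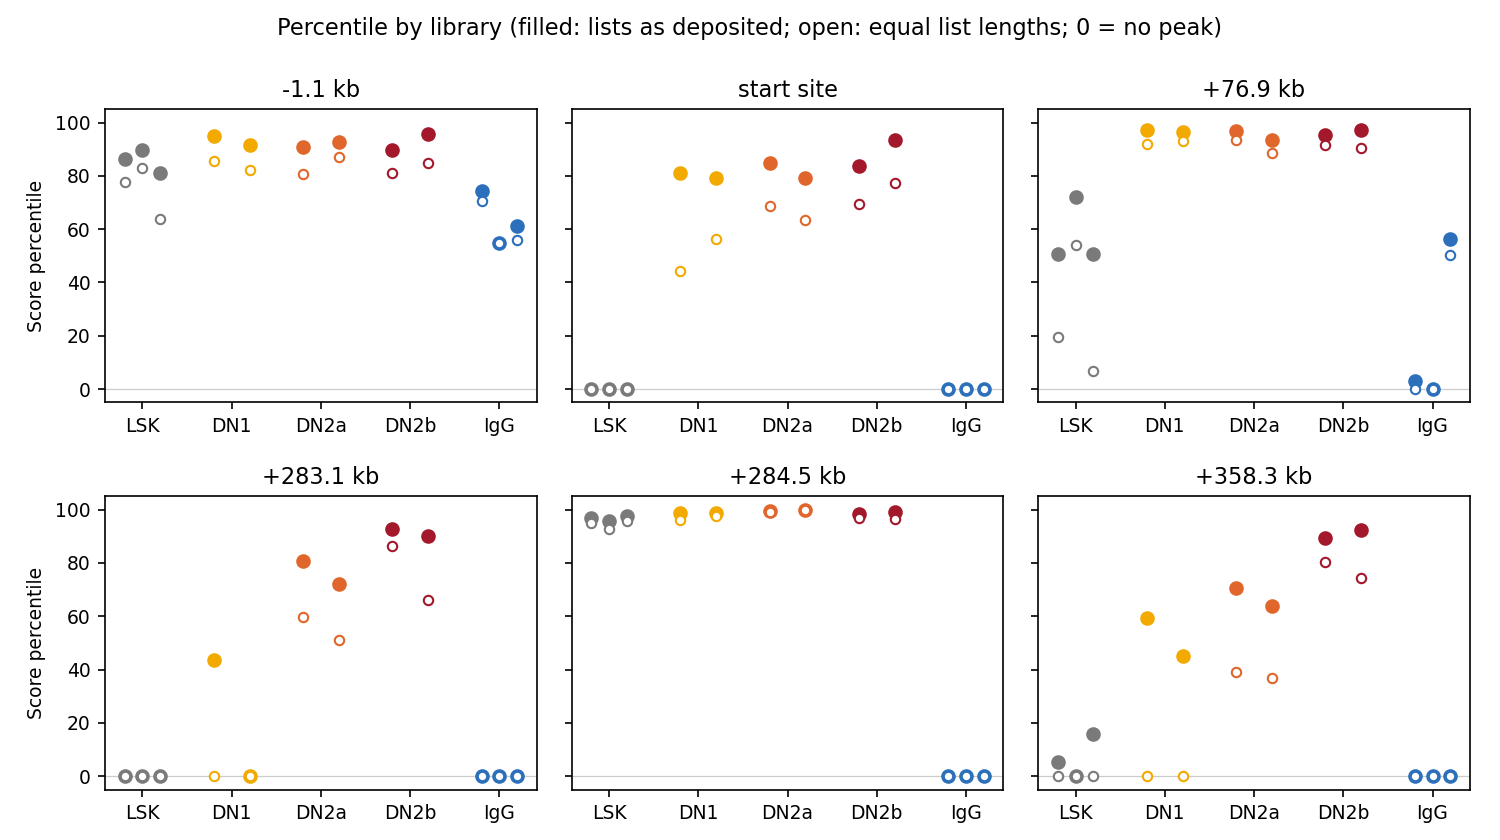
Score percentile by library at 6 sites of the Gata3 window, titled by distance downstream of the principal start. Filled points are lists as deposited, open points equal list lengths, and 0 is no peak. The start site is at 0 in all LSK and IgG libraries, the +284.5-kb site is above 90 in all but IgG, and the +283.1-kb and +358.3-kb sites are highest in DN2b.

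Between the clusters and beyond them, 4 more recurrent sites followed different courses. The +270.7-kb site had peaks in Delta1 libraries alone, at 67.7 and 38.3 in DN1, 70.6 and 56.2 in DN2a, and 80.3 and 76.8 in DN2b (difference 65.0, exact permutation adjusted p = 0.01669). DN2b lay above DN1 and DN2a, which overlapped. At equal lengths DN1 replicate 2 had no peak at this site and the call with Delta1 was lost (25.42 points, exact permutation adjusted p = 0.06403). The +358.3-kb site had 5.2, 0 and 16.0 in LSK, 59.4 and 45.2 in DN1, 70.6 and 63.9 in DN2a, 89.4 and 92.4 in DN2b, and 0 in IgG. LSK and IgG overlapped at 0 while the other groups were apart, and group means rose from 7.06 (LSK) through 52.3 (DN1) and 67.3 (DN2a) to 90.9 (DN2b). It was called both with Delta1 (66.6 points, exact permutation adjusted p = 0.01669) and in DN2 (63.4 points, exact permutation adjusted p = 0.03324). At equal lengths it had peaks in the 4 DN2 libraries alone, and the call with Delta1 was lost (38.36 points, exact permutation adjusted p = 0.1441).

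The +254.7-kb site had the opposite course after DN1, with 0, 6.12 and 37.2 in LSK, 53.7 and 30.5 in DN1, 18.4 and 0 in DN2a, and 0 in DN2b and IgG. It was not called with Delta1 (exact permutation adjusted p = 0.5301) or in DN2 (exact permutation adjusted p = 0.5912). The +384.6-kb site had low values in all 6 Delta1 libraries, from 9.65 in DN2a replicate 1 to 45.6 in DN2b replicate 2, and none elsewhere (difference 19.97, exact permutation adjusted p = 0.01669). At equal lengths it had no peak in any library.

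For the stage comparison, 2 of the 15 tested sites were called higher in DN2 (+283.1 and +358.3 kb) and 0 lower, against 5.18% and 0.894% of all tested DHSs. The +283.1-kb site passed the filter only through the DN2 libraries. The unadjusted p was at or below 0.05 at 9 of the 15 sites, all higher in DN2, against 22.5% of all tested DHSs in either direction. At equal lengths 5 of 10 tested sites were called higher in DN2, against 10.5% of all tested DHSs. They were the start site and those at +196.9, +270.7, +283.1 and +358.3 kb. The last 2 had peaks in the DN2 libraries alone, and the +270.7-kb site had 1 further peak, in DN1 replicate 1. None of the 5 had peaks in 4 libraries outside DN2, so all of them passed the filter only through the DN2 libraries. With no filter on rarely found sites, 0 were called in DN2. With 1 library left out, the number was 4 without DN1 replicate 1 (11.3% of all tested DHSs), 2 without DN1 replicate 2 (5.99%), and 0 without any 1 of the other libraries, where no consensus DHS of the genome was called. With Delta1, 7 of the 10 calls held whichever library was left out (exact permutation adjusted p from 0.01685 to 0.03616), and the calls at -1.10, +190.2 and +284.5 kb did not.

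Patterns of presence place the window among all consensus DHSs. Sites in every Delta1 library and no other numbered 4 (the start site, +75.9, +270.7 and +384.6 kb), or 6.56% of window sites and 1.9% of all. Sites in every library except IgG numbered 3 (+190.2, +196.9 and +284.5 kb), against 3.17% of all. Sites in both DN2b libraries and no other numbered 3, at +6.58 kb, at +130.0 kb (17.8 and 33.8) and at +395.1 kb (33.3 and 66.8), against 1.86% of all. No site was in all 4 DN2 libraries and no other, against 0.758% of all, though at equal lengths the +283.1-kb and +358.3-kb sites had this pattern. In the progression from LSK to DN1, 5 sites were in both DN1 libraries and no LSK library, against 7.77% of all. No site was in every LSK library and no DN1 library, against 1.17% of all. From DN1 to DN2a, 0 sites were in both DN2a libraries and no DN1 library, against 1.3% of all, and 4 (at -47.7, -16.0, +5.72 and +128.6 kb) were in both DN1 libraries and no DN2a library, against 6.32% of all. From DN2a to DN2b, 5 sites were in both DN2b libraries and no DN2a library, against 3.78% of all, and 0 were in both DN2a libraries and no DN2b library, against 0.533% of all. Presence in every library of a group depends on list length, and these counts carry no test.

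Windows of the same shape around each of 21755 protein-coding genes give a further scale, although they overlap one another. The Gata3 window held 61 consensus DHSs against a median of 56, and 45.6% of windows held as many or more. It had 10 sites called higher with Delta1 against a median of 4, with as many or more in 12.4% of windows. It had 4 sites of the Delta1-only pattern against a median of 1, with as many or more in 5.1%.

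RUNX letters were in 25 of the 61 window sites, or 41%, against 26.1% of all consensus DHSs, and in 5 of the 10 sites called higher with Delta1. GATA letters were in 8 window sites (13.1%, against 10% of all) and in the called sites at +190.2 and +196.9 kb. ETS letters were in 9 (14.8%, against 26.2% of all). TCF1 letters were in 10 (16.4%, against 13.6% of all), RBPJ letters in 8 (13.1%, against 15.8%) and E-box letters in 8 (13.1%, against 15.5%). Of the 10 called sites, RBPJ letters were in 2, TCF1 and ETS letters in 1 each and E-box letters in 0. Motif shares among all DHSs called higher with Delta1 are not given here, so the counts in called sites are not a result about them. Sites differ in width from 150 to 350 bp, so the shares of window sites are descriptions. At the RefSeq start, the 300-base promoter of Gata3 had an observed/expected CpG ratio of 0.658, against a median of 0.384 over 32851 promoters of the RefSeq table. A lower ratio was found for 67.9% of those promoters.

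Genes known to act with or under GATA3 in early T cells were examined at their own promoters, by the highest peak within 1 kb of the start of the gene record. Of 30 genes in this list, 22 had a promoter peak in at least 4 libraries, and 9 of these were called higher with Delta1 and 0 lower. Over all 11752 promoters tested, 17.1% were called higher and 0.749% lower. The called genes were the transcription factors Tcf7, Bcl11b and Myb, the Notch targets Hes1 and Nrarp, the recombinase gene Rag1, the cytokine receptor Il7r, the kinase Lck and the surface protein Cd5. The median difference over the 22 was 35.8 percentile points and over all promoters 6.91. At equal lengths 5 of 19 tested were called, when all promoters split into 447 higher (4.41%) and 479 lower (4.72%), compared with 2004 and 88 as deposited. No gene of the list was called when any 1 of the 6 Delta1 libraries was left out. The share of all promoters called in these settings is not given here, so this loss is not a result about the list.

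Tcf7, which encodes TCF1, had the same presence pattern as the Gata3 start site, with 43.6 and 45.2 in DN1, 59.5 and 59.5 in DN2a, 54.3 and 73.0 in DN2b and no peak in LSK or IgG (difference 55.8, exact permutation adjusted p = 0.02353). Its percentiles were below those of the Gata3 start site in each of these libraries. Rag1 had this pattern too, with 29.4 and 53.4 in DN1, 49.3 and 66.5 in DN2a and 67.9 and 88.9 in DN2b. Both genes passed the filter only through Delta1 libraries, and at equal lengths each had peaks in 4 libraries and lost its call (exact permutation adjusted p = 0.1886 for each). Bcl11b, the T lineage commitment factor, was already present in LSK at 27.3, 6.1 and 21.3, reached 69.7 and 61.8 in DN1 and 95.2 to 97.4 in DN2, and was at 0 in IgG (difference 77.1, exact permutation adjusted p = 0.02353, and 0.03298 at equal lengths). Bcl11b had 3 LSK peaks and Lck 2, and neither had an IgG peak. These 2 genes too passed the filter of 4 libraries only with the Delta1 libraries, in which they were high.

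Il2ra and Cd3e, which encode the CD25 and CD3 epsilon chains, had promoter peaks in the 4 DN2 libraries alone, Il2ra at 84.7 to 93.0 and Cd3e at 68.5 to 98.8. The Gata3 start site was thus present at DN1, where these promoters had no peak. Over all promoters, 0 were called higher in DN2 by the exact permutation test, or 0%, with 1382 at an unadjusted p at or below 0.05 and a smallest adjusted p of 0.1413. The record starts of Lef1, Notch1, Notch3 and Ptcra had no peak in any library, although the RefSeq start of Notch1 had one in 11 libraries and that of Lef1 in 6.

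**Figure D5:**
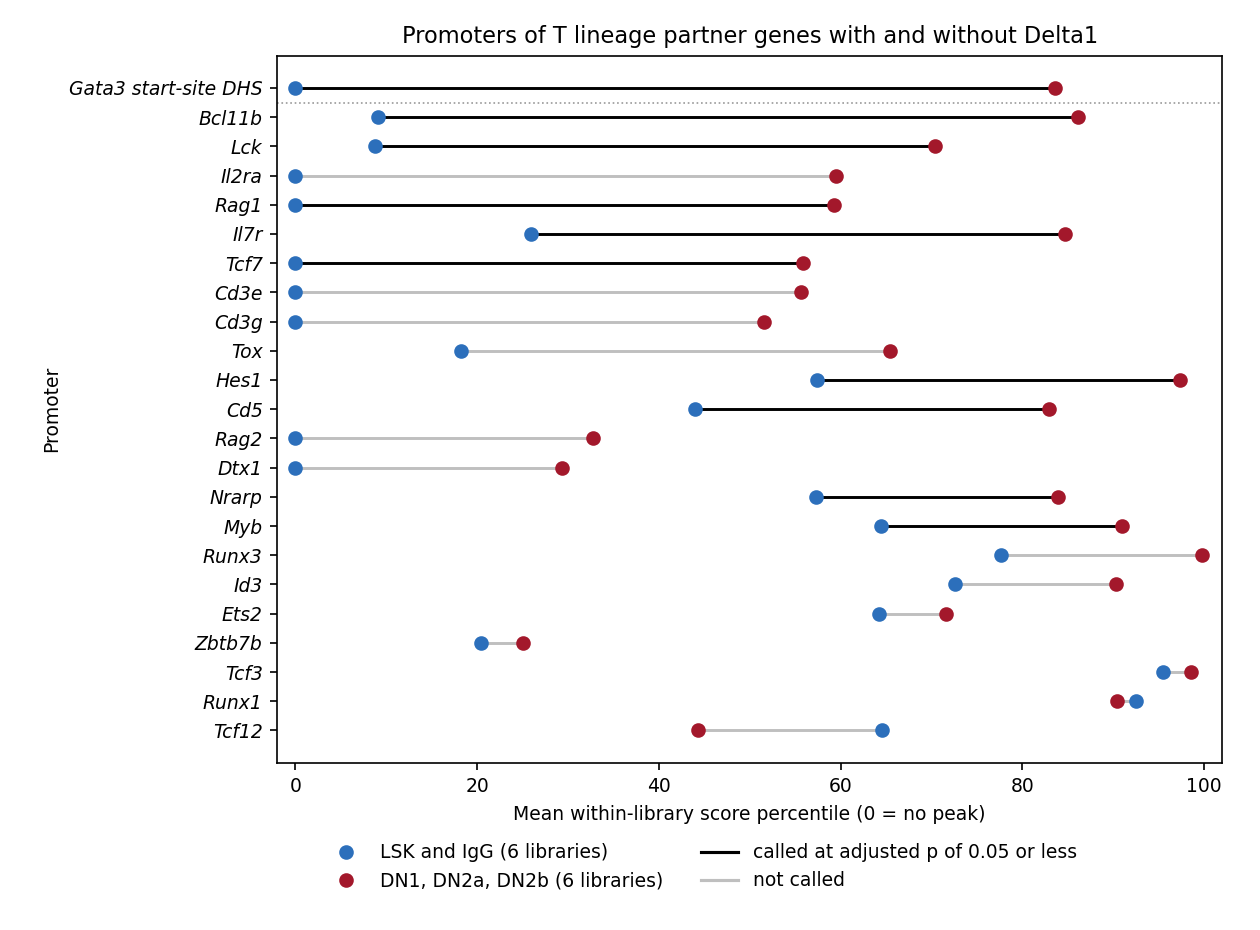
Mean within-library score percentile with Delta1 (red, DN1, DN2a and DN2b) and without (blue, LSK and IgG), at the 22 tested promoters of T lineage partner genes and at the Gata3 start-site DHS. Black lines join means of calls at an adjusted p of 0.05 or less, grey lines the others. The Gata3 start-site line runs from 0 to 83.6, and 9 promoter lines are black.

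Within the GATA family and its cofactors, 3 of 9 genes were tested and 1 was called higher with Delta1, against the 17.1% of all tested promoters. This was Trps1, an atypical GATA-type zinc finger repressor, with a difference of 45.1 (exact permutation adjusted p = 0.02353). Its call was lost at equal lengths (exact permutation adjusted p = 0.08716), where 0 genes of the family and 4.41% of all tested promoters were called higher. No peak was recorded at its RefSeq start. Zfpm1, which encodes the GATA cofactor FOG1, was present in all 12 libraries at a mean of 99.3 with Delta1 and 99.0 without. Gata2, a stem and progenitor factor, had a peak at its record start in 1 library and at its RefSeq start in 6 (exact permutation adjusted p = 0.5003). Gata1, Gata4 and Gata5 had no peak at their record starts in any library.

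Among 12 regulators of other blood lineages that oppose or precede the T program, 10 were tested, 2 were called lower with Delta1 and 0 higher. Over all promoters tested, 0.749% were called lower and 17.1% higher. The median difference over the 10 was 1.867 percentile points. Cebpb and Gfi1b had differences of 36.66 and 39.36 points and were not called (exact permutation adjusted p = 0.05518 and 0.09738). Spi1, which encodes the myeloid factor PU.1, was at 94.0, 93.6 and 91.7 in LSK, 89.8 and 77.0 in DN1, 78.6 and 81.5 in DN2a, 66.8 and 83.3 in DN2b and 94.7, 94.0 and 93.8 in IgG (difference -14.1, exact permutation adjusted p = 0.02353). Cebpa, another myeloid factor, differed by -14.9 (exact permutation adjusted p = 0.04188). Both promoters had peaks in all 12 libraries, so their change was one of rank, unlike the gain of a peak at the Gata3 start. The stem cell factor Tal1 had percentiles of 83.6, 65.0 and 86.8 in LSK and no peak in 4 of 6 Delta1 libraries (exact permutation adjusted p = 0.07892). Tal1 passed the filter only through the libraries without Delta1, in which it was high. At equal lengths 3 of the 10 tested were called lower, Spi1 and Cebpa (exact permutation adjusted p = 0.03298 for each) and Tal1 (0.04744), against 4.72% of all promoters. At RefSeq starts 1 of 9 was called lower, against 0.75% of all. This was Cebpa (exact permutation adjusted p = 0.04093), and no peak was recorded there for Spi1.

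GATA3 is also expressed in cells other than T precursors, among them NK and innate lymphoid cells. Markers of these and of other blood lineages were examined at their promoters. NK cell markers Klrb1c, Ncr1 and Eomes had 2 promoter peaks in each DN1 library, 1 or 2 in the DN2 libraries, 0 or 1 in LSK and 0 in IgG, with Ncr1 at 0 throughout. Klrb1c, which encodes a C-type lectin receptor, was called higher with Delta1 (65.9 points, exact permutation adjusted p = 0.02353, and 0.04744 at equal lengths). With 2 LSK peaks and 0 in IgG, it passed the filter of 4 libraries only through the Delta1 libraries, in which it was high. No peak was recorded at its RefSeq start. Of the innate lymphoid markers Il1rl1, Areg, Rora and Id2, 3 had a peak in both DN1 libraries, 1 or 2 in the DN2 libraries, 2 or 3 in LSK and 1 or 2 in IgG. Id2, a transcriptional inhibitor, had a peak in all 12 libraries and was called higher by 4.27 points (exact permutation adjusted p = 0.02353), a call lost at equal lengths (0.1864). Mast cell markers Cpa3, Ms4a2 and Kit had 2 in each Delta1 and LSK library and 1 in each IgG library, with Ms4a2 at 0 throughout. Cpa3, which encodes a mast cell protease, was called higher with Delta1 (53.99 points, exact permutation adjusted p = 0.02353, and 0.04744 at equal lengths). It had 3 LSK peaks and 0 in IgG, so it too passed the filter only through the Delta1 libraries. Myeloid markers Mpo, Elane, Csf1r and Cebpe had 1 or 2 in the IgG libraries and 0 in the others except 1 in 1 DN2b library. Erythroid markers Gata1, Klf1 and Epor gave 0 to 2 promoter peaks in any library, with Gata1 at 0 throughout. In bulk libraries, a change in how many cells hold an open site and a change in how open it is in each cell cannot be told apart, and the part of these cell types in the Gata3 values was not tested.

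The genes whose promoter percentiles most resembled the Gata3 sites over the 12 libraries were found by Pearson's r, given without a test. For the start-site DHS they were Adgrg5 (0.999), Sytl1 (0.999), Adora3 and Tmigd3, which share a start region (0.998 each), and Gm10428 (0.998), all with peaks in the 6 Delta1 libraries alone. For the +284.5-kb site they were Rgs1, a regulator of G protein signaling (0.9996), Gm49391 and Ctla2a, which overlap (0.999 each), Fndc11 (0.999) and Mycn (0.998). Of these 5, Fndc11 had a promoter peak in 10 libraries and the others in 9. With 6 or 9 values above 0 and the rest at 0, an r this high mainly reflects shared presence.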

How the data were processed

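The study measured open chromatin by DNase-seq in 12 libraries. Per the methods, adapters were removed, read pairs were mapped to mm10 by bwa (BWA 0.7.12 and SAMtools 1.2 in the submitters' processing notes), and peaks were called by hotspot2. The authors deposited 1 list per library, as positions with 1 score per peak, from 1 to 150, whose meaning is not given in the sources used here, so the score was used only as a rank within its list. All peaks were 150 bp wide. Regions of high signal in every library were not removed.

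Groups came from the labels, and replicate numbers follow the order of deposition and pair nothing. Peaks on autosomes and X were merged with Python 3.11.15, numpy 2.4.6 and pandas 2.3.3, and no 2 lists were identical. Sites, and promoters of 21755 protein-coding genes (GENCODE M21, start of the gene record, 1 kb each side), were tested where at least 4 libraries had a peak, by an exact two-sided permutation test of mean percentiles with Benjamini-Hochberg adjustment over all of them. The code was tested on simulated data. The members, gene lists and tests were chosen with earlier results of these data known. Sites named with per-library values were those near an annotated start, recurrent in the distal interval, called in a test (the 8 of largest difference), in all 12 libraries, particular to 1 group, or highest in a group. Sites named beyond these, and the use of the start-site DHS in place of the record start for likeness, were chosen after their values were seen. The alternatives were equal list lengths, the upper 50% of each list, each library left out, other merging, filter, window, promoter and start definitions, presence in place of percentile, and narrower comparison groups. Promoter sequences and RefSeq starts came from the RefSeq table for GRCm38, where 1 entry matched Gata3. Where no peak was recorded at a RefSeq start, a start without a peak and a gene without a matched entry were not told apart. One marker list is not reported here.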

Additional observations from a re-analysis of the deposited data

How the results depend on the processing

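The number and shares of window peaks kept their direction and stayed past the threshold under every alternative run. With single libraries left out, the difference in number was 13.47 to 20.07 peaks, that in share with Delta1 was 1.574 to 1.996 per 10000, that in share in DN2 was 1.338 to 1.961, and eta squared was 0.9003 to 0.9388. With the window ended at 200 kb beyond the gene end, the first 3 of these were 10.17 peaks, 0.9139 and 0.803 per 10000. In the upper 50% of each list they were 11.33 peaks, 2.544 and 2.715 per 10000. Sites called higher with Delta1 numbered 10 in the main test, 4 at equal list lengths, 4 with presence in place of percentile, and 7 to 10 with single libraries left out. Sites called higher in DN2 numbered 2 in the main test, 5 at equal list lengths, 4 in the upper 50% of each list, 1 among sites in 6 or more libraries, 0 with no filter on rarely found sites, 0 with presence, 0 against LSK and DN1 alone, and 0 to 4 with single libraries left out. Called T lineage partner promoters numbered 9 in the main test, 5 at equal lengths, and 0 to 11 with single libraries left out. The share of all promoters called with single libraries left out is not given here, so the 0 is not a result about this list. The cause of these changes was not tested. The difference at the Gata3 record start was 10.99 points with Delta1 and 16.48 in DN2, from DN2b replicate 2 alone, and 0 without that library. It was 76.7 over every annotated transcript start and 83.56 at RefSeq starts. No site was called lower in either comparison under any alternative. No paired analysis was possible because the labels carry no replicate numbers. Depth is unknown, so a missing peak limits only what the caller reported, and a difference in list length cannot be separated from one in digestion or depth.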

Other observations

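Some sites of the Gata3 window that no test of single sites used were found in few libraries. In the upstream Taf3 intron, the site at -47.7 kb had percentiles of 4.19 in LSK replicate 1 and 16.1 and 35.7 in DN1, and no peak in DN2 or IgG. Together with the site at -16.0 kb, it made up the 2 upstream sites found in more than 1 library, and the same 3 libraries held both. The sites at +135.3 and +165.0 kb had the reverse distribution, with peaks in DN2a replicate 1 (6.11 and 13.8) and in DN2b (12.9 and 47.1 for the first, 20.4 and 53.5 for the second).

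Of the 5 sites with no Delta1 peak, 4 were found in LSK libraries and 1 in IgG replicate 1. They were at +11.3 kb, described with the introns of Gata3, at +17.7 kb (34.7 in LSK replicate 3), at +215.0 kb (2.62 in LSK replicate 3), at +374.8 kb (1.39 in LSK replicate 1) and at +163.7 kb (1.57 in IgG replicate 1). The 4 sites with an IgG peak were this last one, the -1.10-kb and +76.9-kb sites, and the +128.3-kb site, which had 26.8 in IgG replicate 3 and 8.33 in DN1 replicate 1.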
